A study of Caenorhabditis elegans with 18 samples.

Results

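The 42 genes described here encode proteins that act on chromosomes during meiosis in Caenorhabditis elegans. They come from a list of gene symbols, matched to WormBase identifiers. No measured value entered the rule, but the list was chosen with earlier results of these data known. All 42 had a row in the count table, out of 20134 genes and 75393 features in all, and all 42 passed the filter on low counts, which kept 9869 genes. Small RNAs were sequenced from whole animals at L4, the last larval stage, raised at 15 °C on NA22 bacteria, in 18 libraries that form 6 groups of 3. Small RNAs bound to a FLAG-tagged Argonaute were recovered on anti-FLAG beads to give an immunoprecipitate (IP) from the strains 1xFLAG::WAGO-1 dpf-3{delta}, 1xFLAG::WAGO-1 with dpf-3 intact, and 1xFLAG::WAGO-3, and every strain also gave input libraries. All strains carried a tag, the labels do not give the extent of the dpf-3 deletion, and an IP from an untagged strain was not analysed here. The labels do not say whether libraries A, B and C of a group came from separate cultures, so the p-values measure the spread between these libraries, which may be technical.

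WAGO-1 and WAGO-3 are Argonautes of the worm germline that carry secondary small RNAs, which RNA-dependent polymerases copy from a messenger and which therefore lie antisense to it. DPF-3 is a dipeptidyl peptidase known to trim the N-terminal ends of these Argonautes, and the libraries ask which small RNAs WAGO-1 holds with and without it. No library combined WAGO-3 with the dpf-3 deletion. In meiosis, cohesin and HORMA-domain proteins build an axis along each chromosome, pairing centre proteins bring homologous chromosomes together through the nuclear envelope, and SYP proteins join the paired axes as the synaptonemal complex. Breaks made by SPO-11 are then repaired, some of them as the crossovers that hold homologues together until they separate. A value below is a count of small RNA reads under a gene and not a level of its messenger.

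Reads counted in features totalled 2206087 to 5649896 per IP library and 88761 to 517278 per input library, and the 42 genes held 75 (spo-11) to 5041 (htp-1) reads per gene over all 18 libraries, with a median of 702. Counts are given as CPM, a gene's reads relative to the TMM-scaled total of its library, and a count of 0 in a library allows a level of up to 0.5004 to 3.03 CPM in the IPs and 4.41 to 14.2 CPM in the inputs (a floor of 3 counts, which covers counting error only). Library A of the WAGO-1 IP stood apart from B and C of its group, with a chi-square per feature of 4.20 and 5.86 against 1.41 between B and C. Library A of the dpf-3 deletion IP did so to a lesser degree, at 3.09 and 2.21 against 1.24. In the other groups this value lay between 1.04 and 1.32. Reads counted under dpf-3 itself gave 3.69 to 11.5 CPM in the dpf-3 deletion inputs, against 23.5 to 37.0 CPM in the WAGO-1 inputs. In the IPs they gave 2.12 to 4.54 CPM with the deletion, against 2.89 to 5.71 CPM with dpf-3 intact. These are small RNA reads and do not check the deletion itself.

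Small RNAs of the meiosis genes were more abundant in WAGO-1 when dpf-3 was deleted. Their summed level was 1381 to 1401 CPM in the dpf-3 deletion IPs, against 811 to 827 CPM in the WAGO-1 IPs with dpf-3 intact. Of the 42 genes, 32 rose and 1 fell (edgeR's quasi-likelihood test, Benjamini-Hochberg adjusted p under 0.05), where 35.5% of all tested genes were called higher and 22.6% lower. The median log2 fold was 0.97 over the 42 genes and 0.23 over all tested genes, and 19 of the 32 rose at least 2-fold. The genes that rose came from every role: all 4 HORMA-domain axis genes, all 3 kleisin genes, 3 of 4 genes of the synaptonemal complex and all 6 crossover genes, with 3 of 7 genes of break repair. The gene that fell was zim-1, which encodes a pairing centre protein. In whole animals, more or fewer germ cells and more or fewer small RNAs per cell cannot be told apart. With library totals in place of TMM factors, 41 of the 42 genes were called higher and 0 lower, where 78.8% of all genes were called higher and 8.85% lower. The median of the 42 genes lay between 0.63 and 0.89 above the median of all genes under every alternative run. Changing the scale moves the log2 folds of members and of all genes by about the same amount, so this difference cannot test the scale. Where an IP library was left out, 37 of the 42 genes still passed the filter, without syp-3, spo-11, dsb-2, zhp-1 and pch-2, and with both A libraries of the WAGO-1 IPs left out 35 did.

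In the inputs, which hold the small RNAs of the whole extract, small RNAs of part of the meiosis genes also stood higher, relative to the scaled library, with the deletion. The summed level was 2142 to 2220 CPM in the dpf-3 deletion inputs, against 1263 to 1357 CPM in the WAGO-1 inputs. There 16 of the 42 genes rose and 0 fell, against 10.1% of all genes called higher and 9.23% called lower. At an unadjusted p under 0.05 the counts were 21 and 0. DESeq2 called 12 and 0, where it called 6.42% of all genes higher and 9.32% lower. The median log2 fold was 0.80 over the 42 genes and 0.19 over all genes. All 4 axis genes, 2 of 3 kleisin genes and 3 of 6 crossover genes were among the 16, while none of the 5 regulators was called. Of the axis genes, only htp-1 kept its input call without any single library. The calls of him-3 and htp-3 were lost without library B of the WAGO-1 input. Among the crossover genes, the zhp-2 call was lost without library C of the WAGO-1 input or library A or C of the deletion input. That of zhp-4 was lost without 5 of the 6 libraries, taken 1 at a time. The number called depends on the scale: it was 28 with library totals, where 33.7% of all genes were called higher. It was 0, with 1 called lower, when library C of the WAGO-1 IP was the TMM reference, where 1.37% of all genes were called higher and 17.6% lower. Without library C of the WAGO-1 input, or of the deletion input, 10 were called higher, where 5.53% and 4.91% of all genes were.

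**Figure D1:**
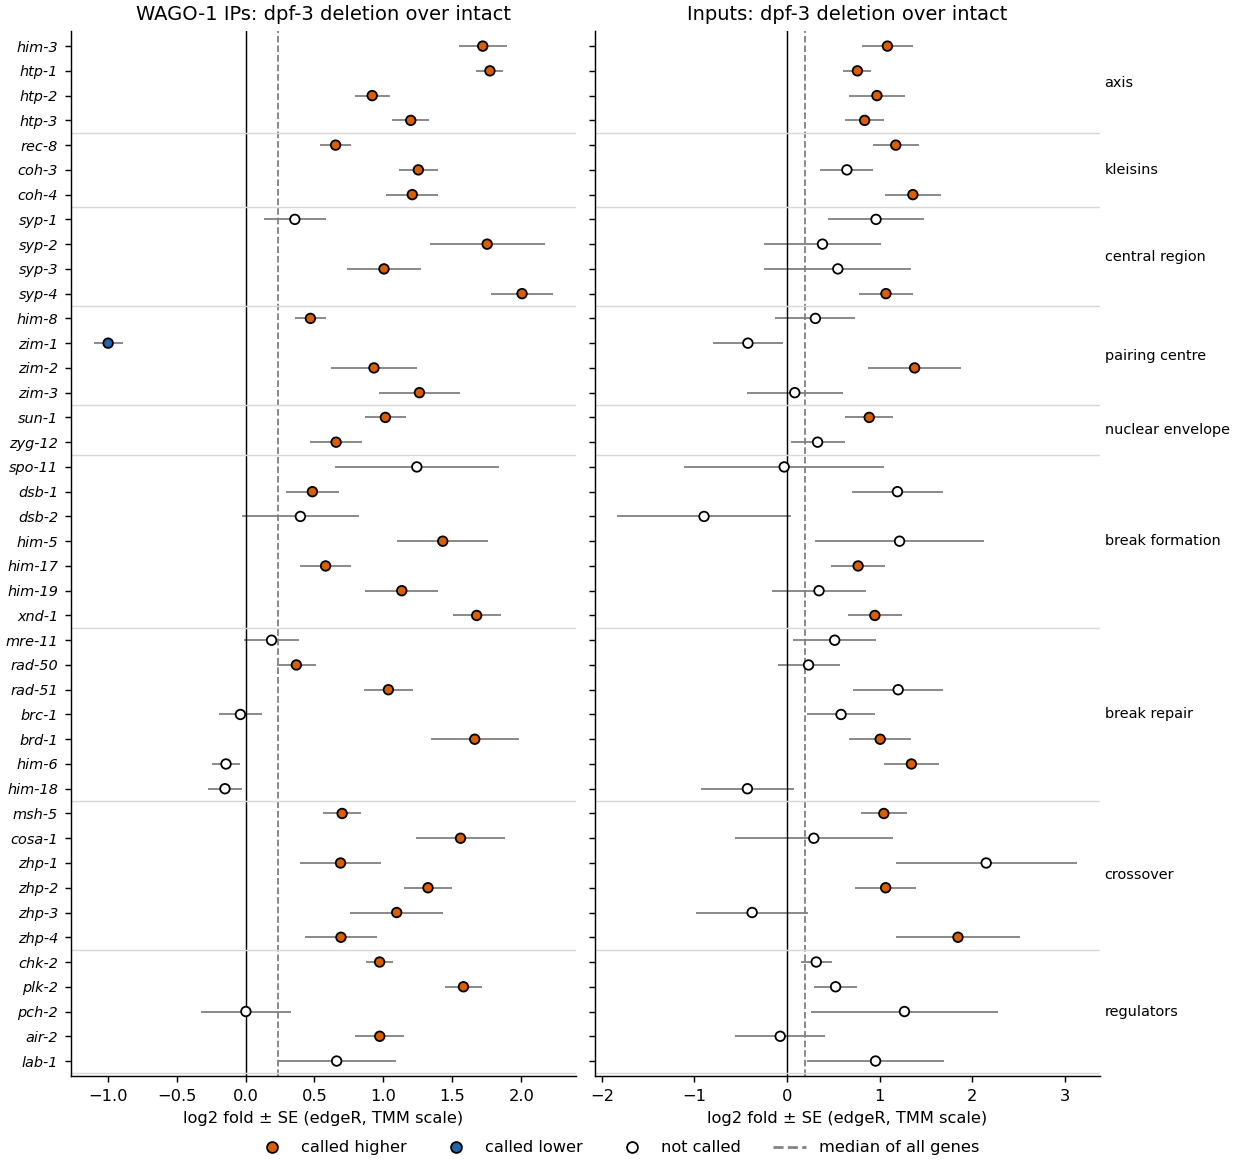
Log2 fold of small RNA counts in the dpf-3 deletion over dpf-3 intact (x axes, with SE) for the 42 genes, grouped by role, in the WAGO-1 IPs on the left and in the inputs on the right. Orange points were called higher, the blue point lower and white points were not called at an adjusted p under 0.05, and the dashed line is the median of all tested genes. In the IPs 32 genes lie to the right as called and zim-1 alone is called to the left, while 16 genes are called in the inputs.

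The change of enrichment, that is the IP against its input with the deletion minus the same with dpf-3 intact, was called for 4 of the 42 genes. It was higher for 3 genes, htp-1, plk-2 and chk-2, and lower for him-6, where 1.72% of all genes were called higher and 0.679% lower. The median was 0.24 over the 42 genes and 0.09 over all genes, and neither sign held throughout. Without any 1 library of the WAGO-1 IPs the members' median was -0.02 (library B of the deletion IP) to 0.06, over the 37 members then tested, and that of all genes was -0.09 to -0.06. With htp-1 (HORMA-domain axis protein) the change was 1.01 ± 0.18 on the log2 scale (adjusted p = 2.8e-05), with plk-2 (Polo-like kinase) 1.06 ± 0.27 (adjusted p = 0.0111), with chk-2 (meiotic checkpoint kinase) 0.66 ± 0.19 (adjusted p = 0.0449) and with him-6 (a helicase) -1.49 ± 0.31 (adjusted p = 0.000778), all by edgeR. The chk-2 call was lost without any single library of either IP group, and the plk-2 call without library C of the WAGO-1 IP (0.74) or library A or B of the deletion IP (0.84 and 0.85). With library totals 7 were called higher and 1 lower, where 7.85% of all genes were called higher. Another TMM reference moved this count to 17 (library B of the WAGO-1 input) or 13 (library C of the WAGO-1 IP) called higher and 0 lower, where 22.1% and 17.7% of all genes were called higher, with an adjusted p for him-6 of 0.0831 and 0.0544.

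Against their inputs, more meiosis genes were called lower than higher in both kinds of WAGO-1 IP, and as many higher as lower in the WAGO-3 IP. In the dpf-3 deletion, 3 of the 42 genes were higher in the IP and 19 lower, against 30.4% and 24.1% of all genes, with a median log2 fold of -0.78 over the 42 genes and 0.11 over all genes. With dpf-3 intact, 4 were higher and 22 lower, against 37.2% and 28.4% of all genes, with medians of -1.04 and 0.16. With WAGO-3, 11 were higher and 11 lower, against 28.0% and 30.4% of all genes, with medians of 0.09 and -0.13. The sign of the 0.09 rests on single libraries: it was -0.02, -0.14 and -0.03 without library A, B or C of the WAGO-3 IP, -0.01 without library C of the WAGO-3 input, and -0.04 with DESeq2's size factors. The pairing centre genes him-8 and zim-1 and the repair gene him-18 were higher in all 3 kinds of IP, and brd-1 was the lowest member in each. The labels give a small RNA purification step for the inputs that the IPs did not have, and its part in these differences was not tested. With library totals no member was called higher in any of the 3 IPs (0, 0 and 0) and 31, 34 and 31 were called lower in the deletion, WAGO-1 and WAGO-3 IPs, where all features together shifted by -1.07, -1.44 and -1.62 and 42%, 54.5% and 59.4% of all genes were called lower. Without library A or C of the deletion input the count of 19 was 11, where 15.1% and 14.5% of all genes were called lower. Without library B of the WAGO-3 IP the 11 called higher were 6, of 37 members then tested, where 31% of all genes were called higher.

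Among the meiosis genes, more had a higher enrichment with WAGO-3 than with WAGO-1 than the reverse. Their summed level was 1625 to 1699 CPM in the WAGO-3 IPs, against 811 to 827 CPM in the WAGO-1 IPs, and 1520 to 1691 CPM in the WAGO-3 inputs, against 1263 to 1357 CPM in the WAGO-1 inputs. The enrichment itself, tested as the difference of the differences, was higher with WAGO-3 for 15 of the 42 genes and lower for 2, where 10.6% of all genes were called higher and 16.6% lower. The median difference was 0.64 over the 42 genes and -0.09 over all genes. The median of the 42 genes lay 0.40 to 1.04 above that of all genes under every alternative run, a gap that cannot test the scale. The 15 included 3 of 4 axis genes, sun-1 of the nuclear envelope, chk-2 and air-2 among the kinases, and mre-11 and rad-50 of break repair. Lower with WAGO-3 were him-6 and zhp-4. The call for zim-2 was lost under the replicate block (1.68, adjusted p = 0.0567 by edgeR). The count of 2 was 1 without any single library of the WAGO-1 input, where 12.6% to 13.8% of all genes were called lower. It was 0 without library B of the WAGO-3 input, where 10.8% were. The values for WAGO-1 in this comparison and in the change of enrichment come from the same libraries.

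**Figure D2:**
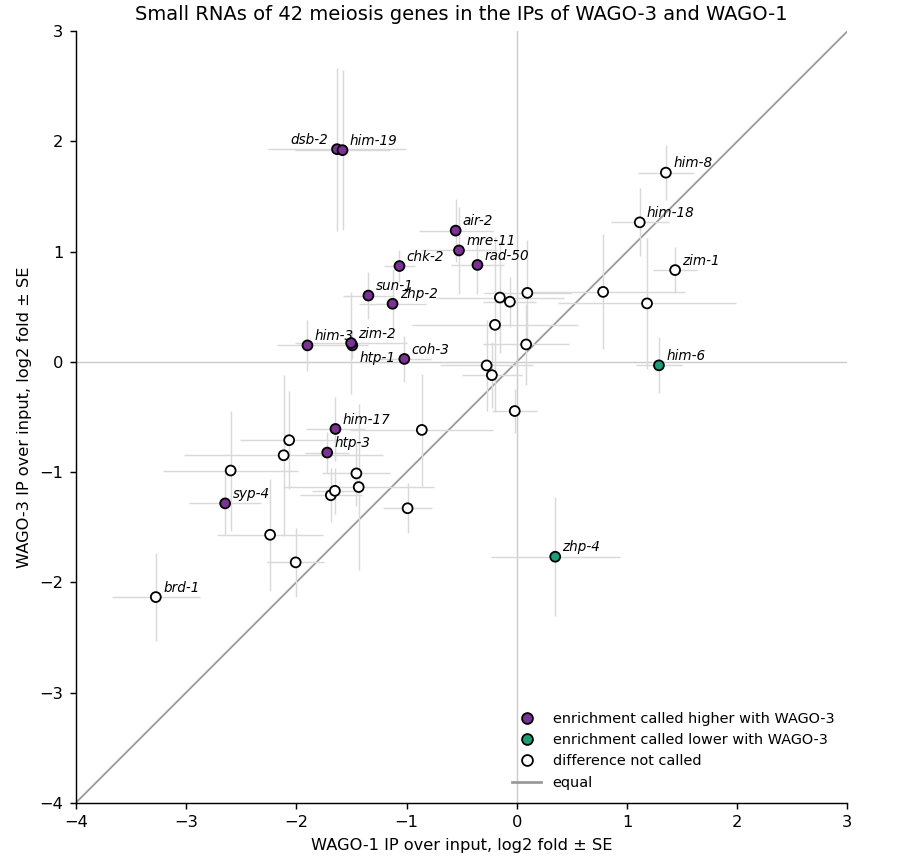
Log2 fold of IP over input with WAGO-3 (y axis) and with WAGO-1 and dpf-3 intact (x axis), each with its SE, for the 42 genes. Purple points have an enrichment called higher with WAGO-3, green points lower, and white points have no called difference, and the grey line marks equal values. The 15 purple genes lie above the line and the 2 green ones, him-6 and zhp-4, below it.

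Among the genes of the chromosome axis, htp-1 (chromosome IV, 5390189 to 5391557, build ce11) had the most reads. Its level was 186, 193 and 190.0 CPM in the dpf-3 deletion IPs, against 59.2, 57.1 and 51.6 CPM in the WAGO-1 IPs. The libraries with the deletion all lay far above those without it, a log2 fold of 1.77 ± 0.10 (edgeR adjusted p = 3.5e-36). In the inputs the levels were 268, 251 and 273 CPM with the deletion, against 175, 159 and 141 CPM without it, again with no overlap, and the log2 fold was 0.76 ± 0.15 (edgeR adjusted p = 1.76e-05). In the WAGO-3 IPs htp-1 stood at 205, 221 and 214 CPM, against 186, 179 and 215 CPM in the WAGO-3 inputs, which overlap. With WAGO-1 it was lower in the IP than in the input, with a log2 fold of -1.49 ± 0.14 (edgeR adjusted p = 1.2e-18).

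Sequences of htp-1 and its paralogue htp-2 were not compared here. Where they are alike, reads could be split between them by the authors' counting. Like htp-1, htp-2 rose. Its level was 64.6, 64.0 and 61.6 CPM in the dpf-3 deletion IPs, against 21.0, 39.2 and 35.2 CPM in the WAGO-1 IPs, and 69.0, 71.2 and 66.4 CPM in the deletion inputs, against 33.6, 44.1 and 23.1 CPM in the WAGO-1 inputs. Neither pair of groups overlapped. The log2 folds were 0.92 ± 0.13 and 0.97 ± 0.30, and the input call was lost without library C of the WAGO-1 input or library A of the deletion input. The change of enrichment of htp-2 was -0.05 ± 0.33, with a 95% interval of -0.70 to 0.59, and its difference from that of htp-1 was not tested. The other axis genes also rose with the deletion: him-3 (chromosome IV, 6977508 to 6978765) was at 32.7, 35.8 and 34.1 CPM in the deletion IPs, against 8.67, 10.7 and 10.9 CPM in the WAGO-1 IPs (log2 fold 1.72 ± 0.18, edgeR adjusted p = 1.67e-16). All 3 libraries with the deletion were above all 3 without it. For htp-3, the protein on which the other axis proteins are known to assemble, the means were 53.4 ± 0.792 and 22.4 ± 5.23 CPM (SD, n = 3 each; log2 fold 1.198 ± 0.14).

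Of the axis genes, him-3 differed most between the Argonautes. It stood at 60.6, 56.4 and 44.4 CPM in the WAGO-3 IPs, against 66.3, 44.6 and 39.2 CPM in the WAGO-3 inputs, which overlap. With WAGO-1 it stood at 8.67, 10.7 and 10.9 CPM in the IPs, against 47.1, 30.9 and 44.1 CPM in the inputs, which do not overlap. The enrichment differed by 2.05 ± 0.35 (edgeR adjusted p = 8.39e-07), and htp-1 differed by 1.64 ± 0.19 and htp-3 by 0.90 ± 0.26, while htp-2 at 0.61 ± 0.34 was not called.

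**Figure D3:**
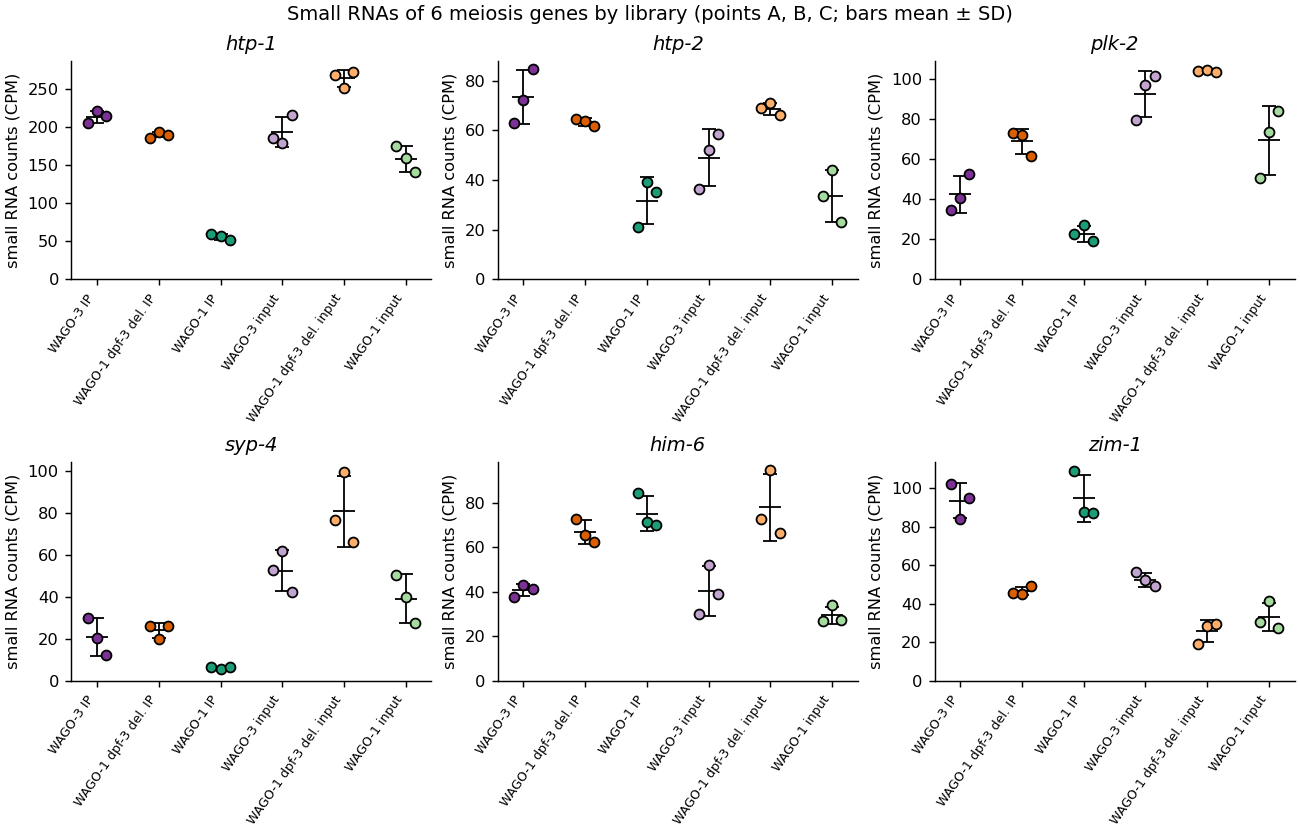
Small RNA level (CPM of the TMM-scaled library, linear y axes from 0) of 6 meiosis genes in each of the 18 libraries, by group. Points are libraries A, B and C, and bars are the mean and SD of 3 libraries. The 3 dpf-3 deletion IPs of htp-1, plk-2 and syp-4 lie above the 3 WAGO-1 IPs, those of him-6 overlap them, and those of zim-1 lie below.

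The kleisin genes rec-8, coh-3 and coh-4 encode the subunit that closes the cohesin ring in meiosis. The gene rec-8 was at 66.7, 73.1 and 68.7 CPM in the dpf-3 deletion IPs, against 38.3, 41.9 and 49.8 CPM in the WAGO-1 IPs, and at 99.6, 99.6 and 103 CPM in the deletion inputs, against 40.4, 47.1 and 44.1 CPM in the WAGO-1 inputs. Neither pair of groups overlapped, and the log2 folds were 0.65 ± 0.11 (edgeR adjusted p = 1.79e-07) and 1.18 ± 0.25 (edgeR adjusted p = 6.95e-05). For coh-4 the inputs stood at 92.0, 75.9 and 55.3 CPM with the deletion, against 26.9, 36.8 and 18.9 CPM without it. That is a log2 fold of 1.36 ± 0.31 (edgeR adjusted p = 0.000183), and coh-4 rose in the IPs by 1.21 ± 0.19. Its paralogue coh-3 rose in the IPs by 1.25 ± 0.14 and was not called in the inputs (0.65 ± 0.29). Reads of the pair may have been split between them where their sequences are alike, which was not checked. With WAGO-3, rec-8 and coh-4 were lower in the IP than in the input, with log2 folds of -0.45 ± 0.20 and -1.01 ± 0.30. The rec-8 call was lost without any single library of the WAGO-3 input, and the coh-4 call without library B.

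The syp genes encode the proteins between the paired axes, and syp-4 (chromosome I, 6847511 to 6849923) had the largest rise of the 42 genes in the WAGO-1 IPs. Its level was 26.2, 19.9 and 26.0 CPM in the dpf-3 deletion IPs, against 6.50, 5.33 and 6.36 CPM in the WAGO-1 IPs. All libraries with the deletion lay above all without it, and the log2 fold was 2.01 ± 0.22 (edgeR adjusted p = 1.52e-14). It also rose in the inputs, with 76.6, 99.6 and 66.4 CPM in the deletion inputs, against 50.5, 39.7 and 27.3 CPM in the WAGO-1 inputs (log2 fold 1.07 ± 0.29), a call lost without library C of the WAGO-1 input (0.82) or library B of the deletion input (0.87). In all 3 kinds of IP syp-4 stood below its input, with log2 folds of -1.71 ± 0.25 in the deletion, -2.65 ± 0.33 with WAGO-1 and -1.28 ± 0.28 with WAGO-3, where it was at 29.97, 20.2 and 12.1 CPM in the IPs, against 53.0, 62.0 and 42.4 CPM in the inputs. Smaller counts lay behind syp-2, which averaged 5.78 ± 1.28 CPM in the deletion IPs and 1.495 ± 0.996 CPM in the WAGO-1 IPs (SD, n = 3 each; log2 fold 1.75 ± 0.42), and behind syp-3 (1.004 ± 0.27). The gene syp-1 was not called in the IPs (0.36 ± 0.22, 95% interval -0.08 to 0.79) and its span shares 991 bases with F13A7.14, a protein-coding gene.

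Of the pairing centre genes, zim-2, zim-3 and him-8 rose in the WAGO-1 IPs and zim-1 fell. All 4 are neighbours on chromosome IV, within 10547086 to 10563974. HIM-8 is known to bind the pairing centre of the X chromosome and the ZIM proteins those of the autosomes. The gene zim-1 was at 45.4, 45.1 and 49.0 CPM in the dpf-3 deletion IPs, against 109, 87.9 and 87.2 CPM in the WAGO-1 IPs. All libraries with the deletion were below all without it, the reverse of the other called members, with a log2 fold of -0.9963 ± 0.10 (edgeR adjusted p = 5.68e-16). With library totals the value was 0.14 (adjusted p = 0.198), so the direction of zim-1 rests on the scale. In the inputs zim-1 was not called (-0.42 ± 0.38, 95% interval -1.17 to 0.33).

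The neighbours zim-2 and zim-3 rose with the deletion on low counts. In the IPs zim-2 was at 6.67, 7.84 and 6.38 CPM in the deletion, against 2.89, 3.05 and 4.49 CPM with dpf-3 intact, and in the inputs at 26.8, 28.5 and 25.8 CPM, against 6.73, 11.8 and 10.5 CPM. Neither pair overlapped, with log2 folds of 0.93 ± 0.31 and 1.38 ± 0.50, but the input call (edgeR adjusted p = 0.0323) was lost without any single library of either input, and the IP call without library B of the WAGO-1 IP. For zim-3 the log2 fold was 1.26 ± 0.29 in the IPs and 0.08 ± 0.52, not called, in the inputs. The gene him-8 was at 72.9, 77.3 and 70.2 CPM in the deletion IPs, against 47.7, 54.8 and 54.3 CPM in the WAGO-1 IPs, a smaller rise of 0.47 ± 0.11 (edgeR adjusted p = 0.000103).

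Against the inputs, him-8 was the most enriched pairing centre gene with WAGO-3. It stood at 79.1, 109 and 82.7 CPM in the WAGO-3 IPs, against 36.5, 22.3 and 26.1 CPM in the WAGO-3 inputs, which do not overlap (log2 fold 1.72 ± 0.25). In the deletion him-8 was at 19.2, 33.2 and 25.8 CPM in the inputs, and with dpf-3 intact at 20.2, 14.7 and 29.4 CPM. Each IP library lay above all inputs of its strain. For zim-1 the inputs were at 19.2, 28.5 and 29.5 CPM with the deletion and 30.3, 41.2 and 27.3 CPM with dpf-3 intact, again below the IPs. With WAGO-1 the log2 folds of him-8 were 1.52 ± 0.29 in the deletion and 1.35 ± 0.25 with dpf-3 intact, and those of zim-1 0.86 ± 0.31 and 1.44 ± 0.20. With library totals, the values of him-8 were 0.08 with WAGO-3 and -0.09 with WAGO-1, and those of zim-1 were -0.80 and -0.01. The zim-1 call in the deletion was lost without library A of the deletion input (0.79). The zim-2 gene was lower in the IP than in the input in the deletion, with a log2 fold of -1.95 ± 0.42, and the call for its difference between WAGO-3 and WAGO-1 (1.67 ± 0.67) was also lost without 9 of the 12 libraries, taken 1 at a time.

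Within the span of zim-1, far more reads were counted in unnamed intervals of the table than under the gene. These intervals were chosen after their values were seen. Over the 16 meiosis genes whose spans hold such intervals there were 59 of them, of which 8 passed the filter and 23 had no read. The interval at 10549942 to 10551120 on the plus strand (coordinates as deposited) held 57131 reads over the 18 libraries, against 1905 reads for zim-1. It stood at 904, 836 and 903 CPM in the dpf-3 deletion IPs, against 3282, 3396 and 3315 CPM in the WAGO-1 IPs, a log2 fold of -1.92 ± 0.07 (edgeR adjusted p = 1.64e-55). In the inputs it stood at 126, 161 and 166 CPM with the deletion, against 696, 698 and 716 CPM without it. The libraries with the deletion were lower in both, and the change of enrichment (0.30 ± 0.16) was not called.

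Of the 8 intervals past the filter, 7 fell in the WAGO-1 IPs with the deletion, close to the 83.4% called lower among all 1779 tested intervals. The interval at 10549140 to 10549474, which overlaps the pseudogene T07G12.14 within zim-1, had a log2 fold of -2.12 ± 0.08, and that at 10549602 to 10549907 one of -1.60 ± 0.09. In brc-1, the interval at 3859333 to 3860574 on the minus strand of chromosome III held 3065 reads, against 749 for the gene. It was at 47.0, 51.7 and 54.9 CPM in the deletion IPs, against 149.6, 184 and 175 CPM in the WAGO-1 IPs (log2 fold -1.74 ± 0.09, edgeR adjusted p = 1.05e-36). The brc-1 gene itself was at 21.5, 23.9 and 22 CPM, against 28.2, 19.4 and 23.6 CPM, which overlap and were not called (-0.04 ± 0.16). In coh-4, a small interval at 4170979 to 4171269 had a log2 fold of -4.85 ± 0.39, with 7 reads in the deletion IPs, against 95 in the WAGO-1 IPs. Against the inputs, the interval with the most reads in zim-1 was higher in the IP by 2.55 ± 0.12 in the deletion, 2.24 ± 0.08 with WAGO-1 and 2.39 ± 0.08 with WAGO-3.

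**Figure D4:**
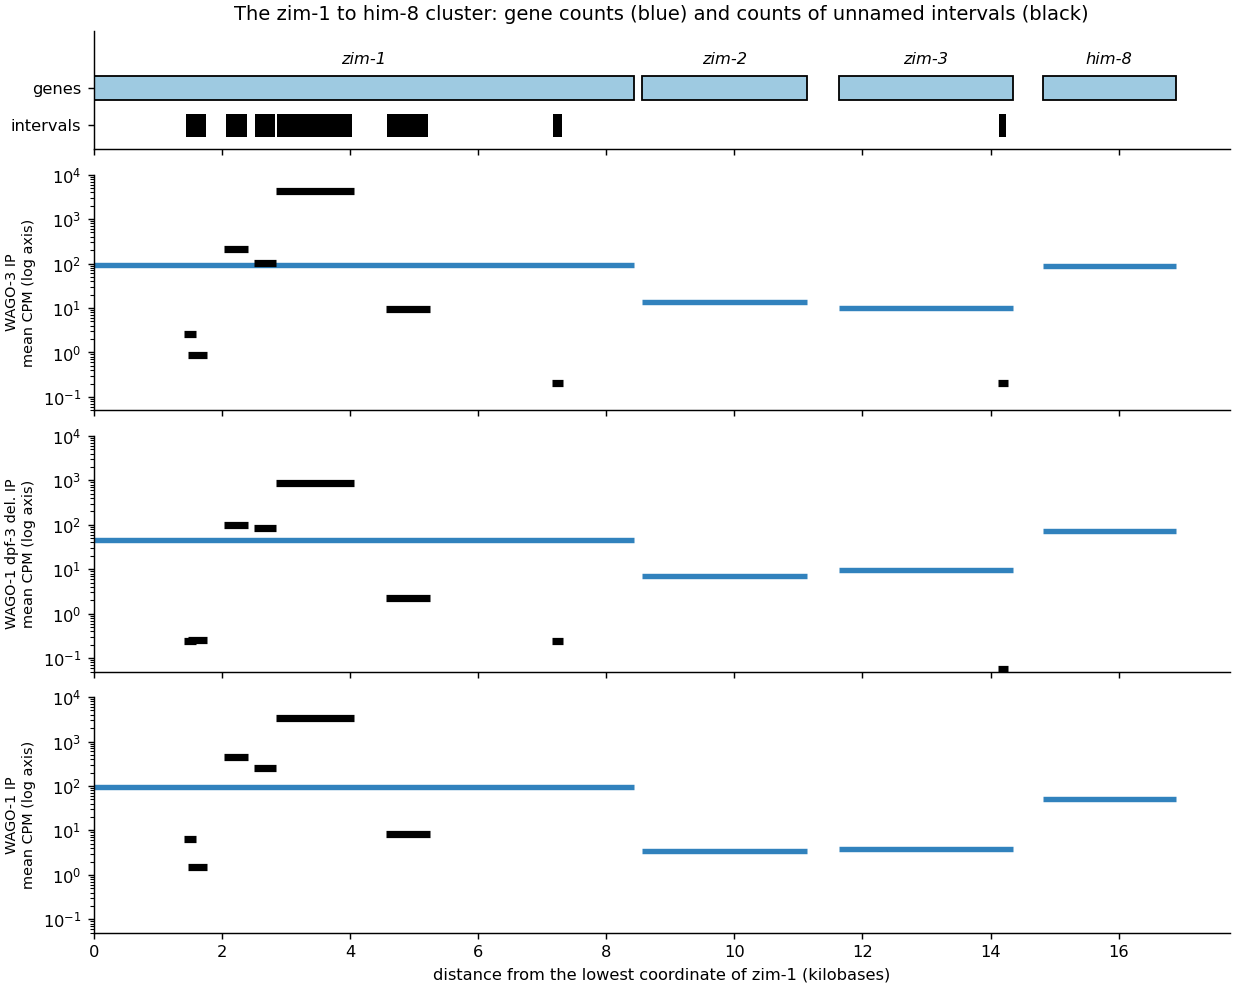
The zim-1, zim-2, zim-3 and him-8 genes (top, blue boxes) and unnamed intervals (black) along the chromosome, with distance from the lowest coordinate of zim-1 on the x axis. Below, the mean level of 3 libraries (CPM, log y axes) of each gene (blue) and interval (black) in the WAGO-3, WAGO-1 dpf-3 deletion and WAGO-1 IPs. Means of 0 are not drawn. The interval with the most reads is at 881 CPM in the deletion IPs, against 3331 CPM in the WAGO-1 IPs, and zim-2, zim-3 and him-8 are higher in the deletion IPs.

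The nuclear envelope genes sun-1 and zyg-12 encode the SUN and KASH proteins that link pairing centres to motors in the cytoplasm. The gene sun-1 was at 34.5, 39.8 and 43.5 CPM in the dpf-3 deletion IPs, against 25.3, 17.9 and 17.6 CPM in the WAGO-1 IPs, and zyg-12 at 17.2, 19.3 and 20.2 CPM, against 7.95, 14.8 and 11.2 CPM. Both rose without overlap, by 1.01 ± 0.15 and 0.66 ± 0.19. With WAGO-3, sun-1 was higher and zyg-12 lower in the IP: sun-1 was at 75.9, 87.0 and 79.7 CPM in the IPs, against 49.7, 52.1 and 58.7 CPM in the inputs (log2 fold 0.60 ± 0.21), and zyg-12 at 16.6, 9.20 and 14.1 CPM, against 53.0, 37.2 and 52.2 CPM (log2 fold -1.82 ± 0.31). The sun-1 call was lost without library B of the WAGO-3 IP, and with library totals sun-1 was lower in the WAGO-3 IP (-1.03). In the WAGO-1 inputs sun-1 was at 37.0, 51.5 and 54.6 CPM and zyg-12 at 50.5, 50.0 and 44.1 CPM, above the WAGO-1 IPs. Between WAGO-3 and WAGO-1 the enrichment of sun-1 differed by 1.95 ± 0.31 (edgeR adjusted p = 1.33e-07) and that of zyg-12 by 0.19 ± 0.39, not called.

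Among the genes of break formation, xnd-1, which encodes a chromatin factor that shapes where breaks fall, rose most in the WAGO-1 IPs. It was at 39.9, 36.2 and 35.8 CPM in the dpf-3 deletion IPs, against 8.67, 10.7 and 14.2 CPM in the WAGO-1 IPs (log2 fold 1.68 ± 0.17, edgeR adjusted p = 3.4e-16). Every library with the deletion was above every library without it. The genes him-5, him-19, him-17 and dsb-1, which promote breaks, rose by 1.43 ± 0.33, 1.13 ± 0.26, 0.58 ± 0.19 and 0.48 ± 0.19, and the dsb-1 call was lost without 5 of the 6 libraries, taken 1 at a time. For him-17 the levels were 20.5, 23.3 and 17.6 CPM in the deletion IPs, against 53.7, 56.9 and 103 CPM in the deletion inputs, which do not overlap (log2 fold -1.83 ± 0.26). The call for him-17 between the IPs was lost without library A of the WAGO-1 IP (0.39) or library B of the deletion IP (0.40). The break enzyme gene spo-11 was near the limit of detection, with 14, 10 and 13 reads in the deletion IPs, against 0, 2 and 4 reads in the WAGO-1 IPs, and was not called (1.24 ± 0.60).

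Several genes of this role had 3 or fewer reads in an input group, and these are described by a ratio of reads with its exact 95% interval, which covers counting error only. For dsb-2 and for him-19 the WAGO-3 IPs held 48 reads, against 3 reads in the WAGO-3 inputs, a ratio of 3.86 (1.25 to 19.4) for each. Their called differences between WAGO-3 and WAGO-1, 3.56 ± 0.97 and 3.50 ± 0.80, rest on those reads. In the inputs, spo-11 had 3 reads with the deletion, against 6 without it (ratio 0.979, 0.158 to 4.58), and dsb-2 had 3, against 11 (ratio 0.534, 0.0956 to 2.02). In the deletion, the IP to input ratio was 0.550 (0.174 to 2.79) for spo-11 and 0.788 (0.255 to 3.94) for dsb-2. None of these 4 ratios excludes equality.

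Break repair had the smallest share of members called in the WAGO-1 IPs, with rad-51, brd-1 and rad-50 higher. The recombinase gene rad-51 averaged 25.4 ± 2.29 CPM in the dpf-3 deletion IPs and 11.95 ± 3.25 CPM in the WAGO-1 IPs (SD, n = 3 each; log2 fold 1.04 ± 0.18). The gene rad-50, of the complex that trims break ends, had a smaller fold of 0.37 ± 0.14, lost without 4 of the 6 libraries, taken 1 at a time, and its partner mre-11 was not called (0.19 ± 0.20). The helicase gene him-6 (chromosome IV, 12490791 to 12495298) was at 72.9, 65.7 and 62.5 CPM in the deletion IPs, against 84.5, 71.2 and 70.0 CPM in the WAGO-1 IPs, which overlap. In the inputs it was at 72.8, 94.9 and 66.4 CPM with the deletion, against 26.9, 33.8 and 27.3 CPM without it, which do not overlap (log2 fold 1.34 ± 0.29, edgeR adjusted p = 0.000109). In the IPs him-6 was not called (-0.14 ± 0.10, 95% interval -0.35 to 0.06).

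The genes brd-1 and brc-1 encode partners in a ubiquitin ligase related to BARD1 and BRCA1. For brd-1 the levels were 8.17, 10.4 and 9.07 CPM in the deletion IPs, against 0.723, 4.19 and 2.62 CPM in the WAGO-1 IPs (log2 fold 1.66 ± 0.32), and 57.5, 61.7 and 51.6 CPM in the deletion inputs, against 13.5, 32.3 and 31.5 CPM in the WAGO-1 inputs. The input call of brd-1 was lost without library A of the WAGO-1 input or any single library of the deletion input. The brd-1 gene stood lower in the IP than in the input, with log2 folds of -2.62 ± 0.32 in the deletion, -3.28 ± 0.40 with WAGO-1 and -2.13 ± 0.40 with WAGO-3, where it was at 6.38, 7.36 and 7.06 CPM in the IPs, against 29.8, 34.7 and 26.1 CPM in the inputs. The span of brd-1 holds 3 transfer RNA genes, whose reads cannot be told apart from those of brd-1 here. The gene him-18, which encodes a scaffold for nucleases that resolve joined chromosomes, was higher in the IP: 50.4, 46.6 and 45.4 CPM in the WAGO-3 IPs, against 26.5, 17.4 and 16.3 CPM in the WAGO-3 inputs. These do not overlap (log2 fold 1.27 ± 0.31), and with WAGO-1 the log2 fold was 1.39 ± 0.38 in the deletion and 1.12 ± 0.26 with dpf-3 intact. In the deletion him-18 was at 44.0, 36.2 and 36.5 CPM in the IPs, against 23.0, 9.49 and 11.1 CPM in the inputs, and with dpf-3 intact at 49.1, 42.3 and 40.8 CPM, against 16.8, 20.6 and 21.0 CPM. Neither pair overlapped. With library totals the WAGO-3 and WAGO-1 values of him-18 were -0.37 and -0.33.

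With WAGO-3, mre-11 and rad-50 exceeded their inputs. The gene mre-11 was at 24.2, 30.04 and 22.2 CPM in the WAGO-3 IPs, against 13.3, 17.4 and 6.53 CPM in the WAGO-3 inputs, and rad-50 at 61.9, 65.6 and 56.5 CPM, against 36.5, 34.7 and 29.4 CPM. Both were higher without overlap, by 1.01 ± 0.40 and 0.88 ± 0.26, and with library totals both were lower (-0.62 and -0.75). The mre-11 call was lost without library A (1.07) or C (0.79) of the WAGO-3 input or library B of the WAGO-3 IP (0.81). The enrichment with WAGO-3 exceeded that with WAGO-1 by 1.54 ± 0.53 for mre-11 and 1.24 ± 0.36 for rad-50, and the mre-11 call was lost without library B of the WAGO-1 input, library C of the WAGO-3 input or library B of the WAGO-3 IP. The rad-50 call was lost without library B of the WAGO-1 input. For him-6 the difference was -1.32 ± 0.35 (edgeR adjusted p = 0.00171), lost without library B of the WAGO-3 input (-0.97). The gene was at 37.6, 42.9 and 41.4 CPM in the WAGO-3 IPs, against 29.8, 52.1 and 39.2 CPM in the WAGO-3 inputs, which overlap.

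All 6 crossover genes rose in the WAGO-1 IPs with the deletion. The genes cosa-1, which marks crossover sites, and zhp-2, a RING-finger gene, had the largest folds, 1.56 ± 0.32 and 1.32 ± 0.17. The gene zhp-2 was at 34.9, 29.0 and 34.8 CPM in the dpf-3 deletion IPs, against 13, 16.4 and 10.1 CPM in the WAGO-1 IPs, and the groups did not overlap. For msh-5, a partner in the complex that stabilises crossover intermediates, the levels were 41.5, 36.6 and 41.3 CPM, against 26.0, 25.9 and 22.5 CPM (log2 fold 0.70 ± 0.14, edgeR adjusted p = 3.21e-06), and the inputs rose by 1.05 ± 0.25. The RING-finger genes zhp-1, zhp-3 and zhp-4 rose by 0.69 ± 0.30, 1.10 ± 0.34 and 0.69 ± 0.26 on few reads. Of these, the zhp-4 call was lost without library B (0.43) or C (0.64) of the WAGO-1 IP or library B of the deletion IP (0.53), and the zhp-3 call without library A of the WAGO-1 IP (0.73). The zhp-1 gene did not pass the filter with an IP library left out, and was not called with DESeq2's test (0.59), with its size factors (0.56) or with genes alone (0.49). In the inputs zhp-1 had 7 reads with the deletion, against 3 without it (ratio 4.57, exact 95% interval 1.04 to 27.4). With dpf-3 intact, 32 reads of zhp-1 in the IPs stood against those 3 in the inputs (ratio 2.32, 0.726 to 11.8).

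In the WAGO-3 IPs msh-5 stood at 28.7, 30.04 and 31.3 CPM, against 76.3, 84.3 and 62.0 CPM in the WAGO-3 inputs, which do not overlap (log2 fold -1.33 ± 0.23). The WAGO-1 IP of msh-5 was also lower than its input (-0.99 ± 0.22). Between the Argonautes zhp-2 was enriched more with WAGO-3, by 1.65 ± 0.43, and zhp-4 less (-2.12 ± 0.77). The zhp-4 value rests on 7 reads in the WAGO-1 inputs and 18 in the WAGO-3 IPs, and its call was lost without 4 of the 12 libraries, taken 1 at a time. The spans of cosa-1, zhp-2 and zhp-4 share 331, 273 and 440 bases with other protein-coding genes.

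The regulators include the kinases chk-2, which starts pairing and break formation, plk-2, which works at pairing centres, and air-2, the Aurora kinase that releases cohesion. The gene chk-2 was at 143, 134 and 130.2 CPM in the dpf-3 deletion IPs, against 70.8, 66.6 and 70.7 CPM in the WAGO-1 IPs (log2 fold 0.97 ± 0.10, edgeR adjusted p = 4.83e-17). For plk-2 the levels were 72.7, 71.8 and 61.5 CPM, against 22.4, 27.03 and 19.1 CPM (log2 fold 1.58 ± 0.13, edgeR adjusted p = 2.22e-21). In both, the libraries with the deletion lay above those without it with a wide gap. Their inputs moved less: chk-2 was at 176, 171 and 192 CPM with the deletion, against 155, 139.7 and 145 CPM without it, and plk-2 at 103.5, 104.4 and 103 CPM, against 50.5, 73.5 and 83.9 CPM. Neither was called (0.32 ± 0.17 and 0.53 ± 0.23), although in both genes the inputs did not overlap.

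With WAGO-3, chk-2 stood at 229, 193 and 199.8 CPM in the IPs, against 119.3, 127 and 91.4 CPM in the inputs, a log2 fold of 0.87 ± 0.15. With WAGO-1 it was lower in the IP (-1.06 ± 0.14), and the difference of 1.93 ± 0.20 (edgeR adjusted p = 4.16e-15) kept its call without any single library. The gene air-2 was at 54.2, 76.6 and 56.5 CPM in the WAGO-3 IPs, against 9.95, 34.7 and 35.9 CPM in the WAGO-3 inputs, where library A was low. The log2 fold was 1.19 ± 0.29, and in WAGO-1 air-2 was at 20.2, 16.4 and 9.36 CPM in the IPs, against 13.5, 29.4 and 14.7 CPM in the inputs, which overlap. The difference between the Argonautes was 1.75 ± 0.46, lost without library B of the WAGO-1 input (1.22). The gene plk-2 was lower in both IPs, with log2 folds of -1.17 ± 0.21 with WAGO-3 and -1.65 ± 0.21 with WAGO-1. With library totals chk-2 and air-2 were lower in the WAGO-3 IP (-0.76 and -0.44). The genes pch-2, an ATPase that remodels HORMA-domain proteins, and lab-1, which protects cohesion, were not called in the WAGO-1 IPs (0.00 ± 0.32 and 0.66 ± 0.43).

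Per kilobase of gene span, introns included, htp-1 carried the highest level of the 42 genes in all 3 kinds of IP, at 156 CPM with WAGO-3, 139 CPM with WAGO-1 in the deletion and 40.9 CPM with WAGO-1 and dpf-3 intact. After it came htp-2 with WAGO-3 and in the deletion (53.3 and 46.0 CPM) and him-8 with dpf-3 intact (25.2 CPM). The 42 genes lie on chromosomes I (10), II (3), III (5), IV (13) and V (11), with 0 on X. Of them, 19 overlap another annotated gene, 14 of these a protein-coding one. Among the 14, him-19 and coh-4 share 441 and 327 bases with it. The strand setting of the counting is not given in the sources used here, so reads of overlapping genes cannot be told apart.

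Most other listed genes of meiosis also rose in the WAGO-1 IPs with the deletion. Of 54 symbols listed (cohesin subunits, repair factors, checkpoint and spindle genes), 52 had a row and 50 passed the filter. In the WAGO-1 IPs 39 of the 50 rose with the deletion and 0 fell (0 at an unadjusted p under 0.05, and 1 by DESeq2), with a median log2 fold of 0.79. Among all genes 35.5% were called higher there and 22.6% lower. In the inputs 21 rose and 0 fell (30 and 0 unadjusted, 13 and 0 by DESeq2), with a median of 0.77, where 10.1% of all genes were called higher and 9.23% lower. DESeq2 called 24% of all genes lower between the IPs and 6.42% higher in the inputs. The checkpoint kinase gene atl-1 had the largest fold of the list in the IPs, 2.36 ± 0.14 (edgeR adjusted p = 4.38e-34). In the change of enrichment 2 were higher, atl-1 (1.87 ± 0.24) and akir-1 (1.00 ± 0.26), and atm-1 was lower (-0.90 ± 0.24), where 1.72% of all genes were called higher and 0.679% lower. Against the inputs, 5 were higher and 32 lower in the deletion IP, 3 and 33 in the WAGO-1 IP, and 6 and 22 in the WAGO-3 IP, with medians of -0.98, -1.16 and -0.57. Of all genes, 30.4%, 37.2% and 28.0% were called higher in the deletion, WAGO-1 and WAGO-3 IPs, and 24.1%, 28.4% and 30.4% lower. Between WAGO-3 and WAGO-1 enrichment, 13 were higher and 1, csc-1, was lower, with a median of 0.49, where 10.6% of all genes were called higher and 16.6% lower.

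Small RNAs of tissue marker genes also differed between the groups. The 12 germ cell genes summed to 1685 to 1897 CPM in the dpf-3 deletion IPs, against 710 to 1108 CPM in the WAGO-1 IPs, and to 1441 to 1518 CPM in the deletion inputs, against 841 to 900 CPM in the WAGO-1 inputs. Of these 12 genes 10 rose and 1, mex-3, fell in the IPs, and 6 rose in the inputs. Among all genes 35.5% were called higher and 22.6% lower in these IPs, and 10.1% and 9.23% in the inputs. The 12 sperm genes summed in the IPs to 111 to 118 CPM with the deletion, against 254 to 270 CPM, and stood at 826 to 1020 CPM in the deletion inputs, against 534 to 666 CPM. Of 11 tested, 2 rose and 3 fell in the IPs, with a median log2 fold of 0.26. In the inputs 1 rose and 1 fell, with a median of 0.01, so the sperm sums do not stand for the typical gene. With WAGO-3 the germ cell sum was 1465 to 1633 CPM in the IPs, against 962 to 1245 CPM in the inputs, and the sperm sum 528 to 564 CPM, against 717 to 972 CPM.

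The body muscle genes summed to 347 to 405 CPM in the deletion IPs, against 526 to 585 CPM in the WAGO-1 IPs, and to 46.0 to 66.4 CPM in the deletion inputs, against 80.7 to 125.0 CPM in the WAGO-1 inputs. Of 3 tested, 1 rose and 2 fell in the IPs, where 35.5% of all genes were called higher and 22.6% lower. The neuron genes summed to 193 to 216 CPM in the deletion IPs, against 129 to 153 CPM, and all 4 tested rose. In the inputs neuron genes stood at 46.0 to 61.7 CPM with the deletion, against 37.0 to 57.3 CPM, and intestine genes at 9.49 to 26.8 CPM, against 16.2 to 30.3 CPM. In the IPs the intestine genes stood at 23.7 to 25.9 CPM, against 22.1 to 25.9 CPM, with 1 of 5 tested lower. In the WAGO-3 IPs the intestine sum was 2.55 to 4.04 CPM, against 35.9 to 53.0 CPM in the WAGO-3 inputs, with elt-2, ifb-2 and asp-1 at 0 in those IPs. The muscle sum there was 214 to 227 CPM, against 39.8 to 96.7 CPM, and the neuron sum 76.7 to 105 CPM, against 24.8 to 49.7 CPM. The marker unc-27 of muscle was at 0 in all 3 input groups and in the WAGO-3 IPs, myo-3 in the deletion and WAGO-3 inputs, unc-15 in the WAGO-3 inputs, act-5 in the deletion inputs, vit-2 in the WAGO-1 inputs, unc-119 in the deletion inputs and unc-13 in the WAGO-3 inputs. These are counts of small RNAs and do not measure the share of a tissue, and their part in the differences of the meiosis genes was not tested.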

How the data were processed

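The authors deposited raw counts of small RNA reads per feature, 1 column per library, for 20134 genes and for unnamed intervals. Per the submitters' processing notes, cutadapt 2.3, Bowtie 1.2.3, SAMtools 1.9 and HTSeq 0.11.2 were used with build ce11. How multiply mapped reads were treated, whether molecular identifiers were used and which strand was counted is not given in the sources used here. Reads in no feature made up 32.5% to 38.6% of the IP counts and 68.6% to 82.5% of the input counts, and stayed out of library sizes and tests.

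Library sizes were scaled with TMM factors (0.434 to 1.10 in the IPs, 1.32 to 2.38 in the inputs). They were 1.06 to 1.10 in the dpf-3 deletion IPs, against 0.478 to 0.500 in the WAGO-1 IPs. Unnamed intervals held 12.0% to 12.1% of the reads in features in the deletion IPs, against 31.2% to 31.3% in the WAGO-1 IPs. In the inputs they held 8.25% to 8.36% with the deletion, against 26.4% to 26.7% without it. The part of this difference in the scale was not tested. Features were kept by edgeR's filterByExpr with a minimum count of 10. All 18 libraries entered 1 quasi-likelihood fit (edgeR 4.0.16, limma 3.58.1, R 4.3.3) with a mean per group, giving 7 contrasts. P-values were adjusted by Benjamini-Hochberg over 11648 features and called under 0.05. Levels are CPM of the scaled library, and the SE of a log2 fold is its size over the square root of F. Scripts were tested on simulated data. Alternatives were DESeq2 1.42.0 and its size factors, library totals, genes alone, no filter, a replicate block, each library left out, and, chosen after seeing the data, both A libraries of the WAGO-1 IPs left out and other TMM reference libraries (the reference was library B of the dpf-3 deletion IP).

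Library letters were checked for pairing by correlating deviations from the group means over 2270 features. The deletion and intact WAGO-1 IPs had r of 0.139 to 0.427 for all 3 letters, and no other pair of groups exceeded 0.1.

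The 42 genes and the lists were chosen with earlier results of these data known. Per comparison, values in every library are given for up to 4 called genes per direction with the largest log2 fold, a mean of at least 20 CPM in 1 of the groups and, outside interactions, no overlap between the groups, and further genes are named by role. For genes picked by this rule, the lack of overlap was a condition of the choice and adds no support to the call. Gene names and spans come from RefSeq's gene table of ce11, which matched all 42 identifiers.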

Additional observations from a re-analysis of the deposited data

Results flagged for a closer look

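The change of WAGO-1 enrichment with the dpf-3 deletion differed from 0, by the interaction term, for htp-1 (1.01), plk-2 (1.06), chk-2 (0.66) and him-6 (-1.49), all on the log2 scale. The plk-2 and chk-2 calls were not kept with both A libraries of the WAGO-1 IPs left out (0.80, adjusted p = 0.0716, and 0.43, adjusted p = 0.229, by edgeR).

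The enrichment with WAGO-3 differed from that with WAGO-1, by the interaction term, for 17 genes. It was higher with WAGO-3 for him-3 (2.05), htp-1 (1.64) and htp-3 (0.90) of the axis, coh-3 (1.05) of the kleisins, syp-4 (1.36), zim-2 (1.67), sun-1 (1.95), and dsb-2 (3.56), him-19 (3.50) and him-17 (1.04) of break formation. It was also higher for mre-11 (1.54) and rad-50 (1.24) of break repair, zhp-2 (1.65), chk-2 (1.93) and air-2 (1.75). It was lower with WAGO-3 for him-6 (-1.32) and zhp-4 (-2.12). The him-17 call was lost without 9 of the 12 libraries taken 1 at a time, and the syp-4 call without library A of the WAGO-3 IP (0.88).

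Reads in unnamed intervals stand outside the counts of the genes. The intervals in zim-1 that start at 10549942, 10549140 and 10549602 held 57131, 5710 and 3698 reads over the 18 libraries, that in brc-1 at 3859333 held 3065, and that at the edge of lab-1 at 9656109 held 654.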

How the results depend on the processing

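The scale is the main limit. With library totals, 0 members were lower in the IPs of the deletion against intact (1 with TMM), 28 were higher in the inputs (16), 7 had a higher change of enrichment (3), 0 were higher and 31 lower in the deletion IP against input (3 and 19), 0 and 34 with WAGO-1 (4 and 22), and 0 and 31 with WAGO-3 (11 and 11). Of all genes, 8.85% were then lower between the IPs, 33.7% higher in the inputs and 7.85% higher in the change. Against input, 11.8%, 9.86% and 5.63% were higher and 42%, 54.5% and 59.4% lower in the deletion, WAGO-1 and WAGO-3 IPs. The sign turned for zim-1 between the IPs (0.14) and in the deletion IP against input (-0.21), for him-8 (-0.0908), zim-1 (-0.0092), him-6 (-0.16) and him-18 (-0.33) with WAGO-1, and for htp-2 (-1.09), zim-1 (-0.80), sun-1 (-1.03), mre-11 (-0.62), rad-50 (-0.75), him-18 (-0.37), chk-2 (-0.76) and air-2 (-0.44) with WAGO-3. The library totals lack the scaling that shifted all features, and for the other settings the cause was not tested. Members lower between the IPs numbered 3 with DESeq2's size factors, with genes alone and with both A libraries out, and 2 with DESeq2's test. Of all genes, 26%, 28.6%, 25.4% and 24% were called lower in these settings, in that order. With both A libraries out the change was higher for 1 member and for 1.64% of all genes. Inputs had 8 higher with genes alone, where 5.36% of all genes were. WAGO-3 IP against input had 6 higher with DESeq2 and with no filter, where 23.9% and 12.8% of all genes were. With no filter there were also 11 lower in the deletion IP against input and 1 lower for WAGO-3 against WAGO-1. Of all genes, 8.43% and 6.86% were lower there. With library B of the WAGO-1 input as TMM reference, 8 were higher in the inputs, 17 higher and 0 lower in the change, and 1 lower for WAGO-3 against WAGO-1. With library C of the WAGO-1 IP these were 0 higher and 1 lower, 13 and 0, and 1. The shares of all genes were 5.58%, 22.1% and 0.253%, and 12.5% with the former reference. With the latter they were 1.37% and 17.6%, 17.7% and 0.294%, and 13.5%. Leaving out 1 library (37 members tested where it was an IP, 42 where it was an input) gave 26 to 29 higher and 1 to 3 lower between the IPs, 10 to 12 higher in the inputs, 1 to 3 higher in the change, 11 to 22 lower in the deletion IP against input, 6 to 11 higher with WAGO-3, and 0 to 3 lower for WAGO-3 against WAGO-1. Of all genes, 32.9% to 36.1% were then higher and 23.3% to 25.2% lower between the IPs. In the inputs 4.91% to 6.27% were higher, and in the change 1.09% to 2.19%. In the deletion IP against input 14.5% to 32.3% were lower, and with WAGO-3 21.9% to 31.5% were higher. For WAGO-3 against WAGO-1 10.8% to 20.1% were lower. The replicate block moved no count by over 1.5 times (32 higher and 1 lower between the IPs, where 35.7% and 22.6% of all genes were). It lost the calls of mre-11 in the deletion IP against input (-0.85, adjusted p = 0.0553 by edgeR) and of zim-2 for WAGO-3 against WAGO-1 (1.68), and changed no other call. The members' median minus that of all genes kept its sign under every setting run, except for WAGO-3 IP against input (-0.01 to 0.24). A change of scale moves both medians by about the same amount, so the scale settings could hardly alter this sign. Inputs of 88761 to 517278 reads limit what low members can show.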
